A study of Homo sapiens with 9 samples.

Results

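Orphan and adhesion G protein-coupled receptor genes were described here, taken as the protein-coding genes whose current symbol is GPR followed by a digit or begins with GPRC or ADGR. The rule found 111 of the 60664 genes in the count table, and 54 of them had enough reads to be tested. By family, 28 belong to the adhesion class (ADGR), 63 to the rhodopsin-like class A, 8 to class C, and 11 are other multi-pass proteins that carry a GPR symbol. The remaining gene, GPR15LG, encodes the ligand of GPR15 and not a receptor, and it had 0 counts. Expression was measured by RNA sequencing of total RNA from A549, an established human lung adenocarcinoma line, in 9 libraries. Of these, 3 were labelled with a short hairpin RNA against HES1 (shHES1), 3 with a hairpin against HES4 (shHES4) and 3 with a control hairpin (shCtrl). All groups share the A549 background and the presence of a hairpin; the sources used here give neither the hairpin sequences nor how they were delivered, how many clones were used or when cells were harvested. HES1 and HES4 are basic helix-loop-helix transcriptional repressors that act downstream of Notch, and the series asks how they affect gene expression in this line.

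G protein-coupled receptors cross the membrane by a bundle of helices and pass signals to heterotrimeric G proteins, which in turn set cyclic AMP and calcium in the cell. An orphan receptor is one without an agreed natural ligand. Adhesion receptors have long extracellular regions that bind matrix or membrane proteins of neighbouring cells, and many cut themselves at a juxtamembrane site so that a tethered agonist can switch on the helices. The GPRC5 receptors of class C were first found as genes induced by retinoic acid, and GPRC5A is best known as an abundant receptor of lung epithelium.

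Upstream sequence is shown for the receptor gene with the largest difference between groups (GPR141) and for both latrophilin genes that differed between the HES hairpins (ADGRL3 and ADGRL2), because HES factors are known to bind the N-box (CACNAG) and the class C E-box (CACGNG). Each window holds the 250 bases before the RefSeq start on GRCh38.p14, on the plus strand, at chr7:37683516-37683765 for GPR141, chr4:61200076-61200325 for ADGRL3 and chr1:81305882-81306131 for ADGRL2. RefSeq lists 1, 2 and 8 starts for GPR141, ADGRL3 and ADGRL2, and the window farthest upstream was taken. Capitals mark the letters that match either motif on either strand.
GPR141: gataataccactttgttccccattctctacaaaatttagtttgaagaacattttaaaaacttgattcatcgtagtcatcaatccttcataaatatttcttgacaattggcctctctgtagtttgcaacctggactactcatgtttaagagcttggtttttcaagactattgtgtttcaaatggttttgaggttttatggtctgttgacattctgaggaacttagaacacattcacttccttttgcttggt
ADGRL3: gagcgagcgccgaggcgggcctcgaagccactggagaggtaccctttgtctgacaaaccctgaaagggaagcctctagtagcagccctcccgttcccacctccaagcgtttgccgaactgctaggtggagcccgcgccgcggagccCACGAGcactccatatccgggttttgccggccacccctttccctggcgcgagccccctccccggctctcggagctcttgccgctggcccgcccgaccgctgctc
ADGRL2: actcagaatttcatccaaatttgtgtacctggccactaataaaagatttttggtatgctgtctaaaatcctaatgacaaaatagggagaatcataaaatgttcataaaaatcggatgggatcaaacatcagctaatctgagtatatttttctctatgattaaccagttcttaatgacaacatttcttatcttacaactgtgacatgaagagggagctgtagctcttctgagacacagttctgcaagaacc
The ADGRL3 window held CACGAG, which fits both motifs and begins 104 bases before the start. The GPR141 and ADGRL2 windows held neither motif. Of 35116 windows of the same length in the RefSeq table, 32.0% held an N-box, 26.7% a class C E-box and 48.0% at least 1 of them. The share of G and C was 34.4% in the GPR141 window, 34.8% in ADGRL2 and 68.0% in ADGRL3, beside a median of 58.0% over all windows. The shares with a motif were not matched for this. A match is a run of letters and was not tested as a binding site.

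Total counts were 25.6 to 27.6 M in the libraries labelled shHES1, 22.8 to 24.4 M in the shHES4 libraries and 23.9 to 26.4 M in the shCtrl libraries. The targeted genes were checked in CPM, which are counts brought to a common library size with TMM size factors. In the libraries labelled shHES1, HES1 was no lower than elsewhere, at 9.11, 6.40 and 8.32 CPM, against 6.99, 6.55 and 7.17 CPM in shCtrl libraries (edgeR adjusted p = 0.345), so these libraries are named by their label. HES4 was lower both in the libraries labelled shHES1 (log2 fold change -0.59 ± 0.10, SE) and in the shHES4 libraries (-0.46 ± 0.10), although without shHES4 replicate 2 or 3 the shHES4 call was lost. All 8 markers of the A549 list were detected, with summed levels of 13347.4 to 13608.1 CPM in the libraries labelled shHES1, 14892.5 to 15356.0 CPM in shHES4 and 14278.3 to 14640.3 CPM in shCtrl. The libraries labelled shHES1 were lowest in this sum, without overlap, but the markers did not move together. In shHES1 against shCtrl, KRT8, KRT18, AKR1B10, AKR1C1 and NQO1 were called lower (log2 fold changes of -0.32 to -0.14) and KRT19 higher (0.73). EPCAM (0.56) and ALDH1A1 (0.03) were not called. The labels do not state whether replicates are separate cultures, and p-values therefore speak only to the spread among these libraries, which could be technical.

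Of the 111 genes, 57 had too few reads to be tested. Among these, 16 had 0 counts in all 9 libraries, 13 of them in class A, and a count of 0 over 224.1 M counts allows a level of up to 0.0134 CPM (3 counts, counting error only). The other 41 had up to 72 counts in total, the highest being ADGRF3. ADGRF5, which restrains surfactant in the mouse lung, had 9 counts over all libraries. GPR183, an oxysterol receptor that guides lymphocytes, had 5 counts, and GPR84, a receptor for medium-chain fatty acids on myeloid cells, had 15. No tested member had reached the filter's minimum of 0.41 CPM in the libraries of 1 group only.

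Levels of different genes were compared as CPM per kilobase of annotated exon. ADGRG1, also known as GPR56, a receptor for collagen III that is required for the layering of the cerebral cortex, was highest, at 34.5 ± 0.441 in the libraries labelled shHES1, 36.1 ± 0.666 in shHES4 and 38.8 ± 1.33 in shCtrl libraries (CPM per kilobase, SD, n = 3). GPRC5A was next, with 21.6 ± 0.402 in the libraries labelled shHES1, 29.6 ± 0.432 in shHES4 and 25.6 ± 0.371 in shCtrl libraries. GPR108, GPR107, ADGRE5 and ADGRG6 followed at shCtrl means of 16.6, 16.6, 16.0 and 15.1 CPM per kilobase, then GPRC5C at 9.02 and GPR137 at 7.57. Among these 8, the shCtrl values of GPR108 and GPR107 and those of GPR107 and ADGRE5 overlapped, and the other neighbours in the order did not. By class, 3 of the 8 are adhesion receptors, 2 are of class C and 3 are other multi-pass proteins.

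GPR107 and GPR108 are paralogous multi-pass proteins of the Golgi, and GPR137 is a multi-pass protein of the lysosome. GPR107 read 152.4, 154.4 and 155.3 CPM in the libraries labelled shHES1, 155.2, 157.9 and 160.1 CPM in shHES4 and 153.7, 154.8 and 146.6 CPM in shCtrl. GPR108 read 59.6, 58.0 and 56.2 CPM in the libraries labelled shHES1, 54.8, 52.4 and 51.9 CPM in shHES4 and 55.6, 50 and 54.4 CPM in shCtrl. GPR137 read 32.2, 29 and 30.6 CPM in the libraries labelled shHES1, 32.4, 28.8 and 29.8 CPM in shHES4 and 30.1, 30.6 and 30.8 CPM in shCtrl. ADGRG6, known as GPR126 and needed for myelination by Schwann cells, read 141.1, 139.4 and 132.1 CPM in the libraries labelled shHES1, 122.0, 139.7 and 135.8 CPM in shHES4 and 127.4, 126.1 and 130.0 CPM in shCtrl. None of these 4 genes passed the test in any of the 3 comparisons, with log2 fold changes between -0.03 and 0.13.

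**Figure D1:**
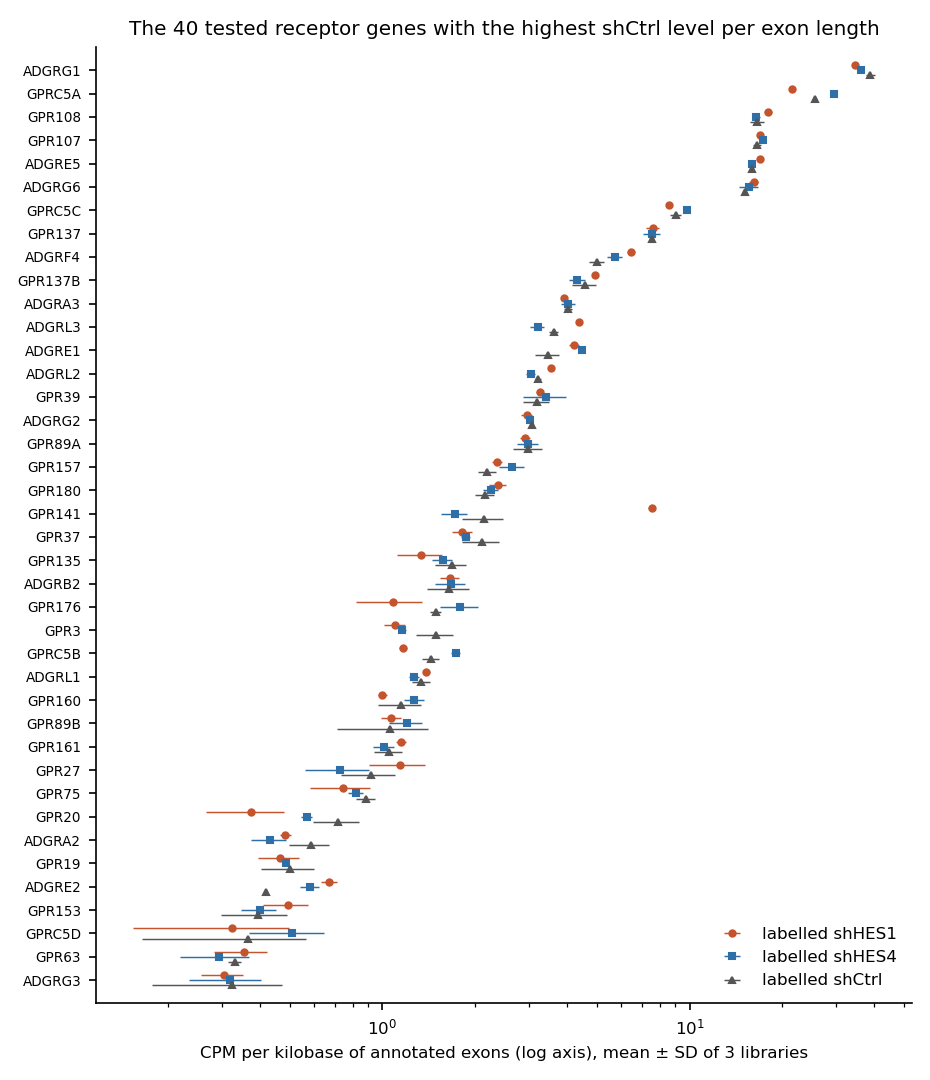
Level of the 40 tested genes with the highest shCtrl mean, of 54, in CPM per kilobase of annotated exon (horizontal log axis), as the mean ± SD of 3 libraries per group, ordered by the shCtrl mean. ADGRG1 is at the top at 34.5, 36.1 and 38.8 CPM per kilobase for shHES1, shHES4 and shCtrl labels, and GPR141 is the gene whose shHES1-labelled point, at 7.52, stands farthest from its shHES4 (1.72) and shCtrl (2.14) points.

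In libraries labelled shHES1 against shCtrl, 8 of the 54 tested genes passed an edgeR quasi-likelihood adjusted p of 0.05, which is 14.8%, where 9.73% of all 16903 tested genes did. In the list and over all genes, the share called higher was 5 of 54 and 5.25%, and the share called lower 3 of 54 and 4.48%. Higher were GPR141, ADGRL3, ADGRE1, ADGRE2 and ADGRF4, and lower were GPRC5A, GPRC5B and ADGRG1. In shHES4 against shCtrl, 4 of 54 passed, or 7.41%, beside 5.94% of all tested genes: ADGRE1, ADGRE2 and GPRC5A were higher and ADGRL3 was lower, where 3.24% of all tested genes were higher and 2.70% lower. In libraries labelled shHES1 against shHES4, 10 of 54 passed, or 18.5%, beside 15.1% of all tested genes, with 5 higher (GPR141, ADGRL3, ADGRL2, GPR143 and GPR162) and 5 lower (GPRC5A, GPRC5B, GPRC5C, GPR176 and GPR35), where 7.41% of all tested genes were higher and 7.65% lower. Median log2 fold changes of the 54 were 0.043, 0.004 and -0.037 in these comparisons, beside -0.003, 0.001 and -0.001 over all tested genes. These are bulk samples, so fewer cells with a transcript and less of it per cell cannot be told apart.

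Both comparisons with shCtrl use the same shCtrl libraries. ADGRE1 and ADGRE2 were called higher in both, and GPRC5A and ADGRL3 were called in both in opposite directions. A further 6 genes (GPRC5C, ADGRL2, GPR143, GPR162, GPR176 and GPR35) were called only between the HES hairpins, that is in libraries labelled shHES1 against shHES4. With libraries scaled to total counts alone, shHES1 against shCtrl still gave 8 calls, but 6 higher and 2 lower, since ADGRL2 gained a call (adjusted p = 0.0451) and GPRC5B lost its own (0.0642). Over all genes that scaling gave 1174 higher among 1723 calls, beside 887 among 1644. The 4 calls of shHES4 against shCtrl came down to 2 (ADGRE1 and GPRC5A) without shCtrl replicate 2, and likewise without shHES4 replicate 1.

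**Figure D2:**
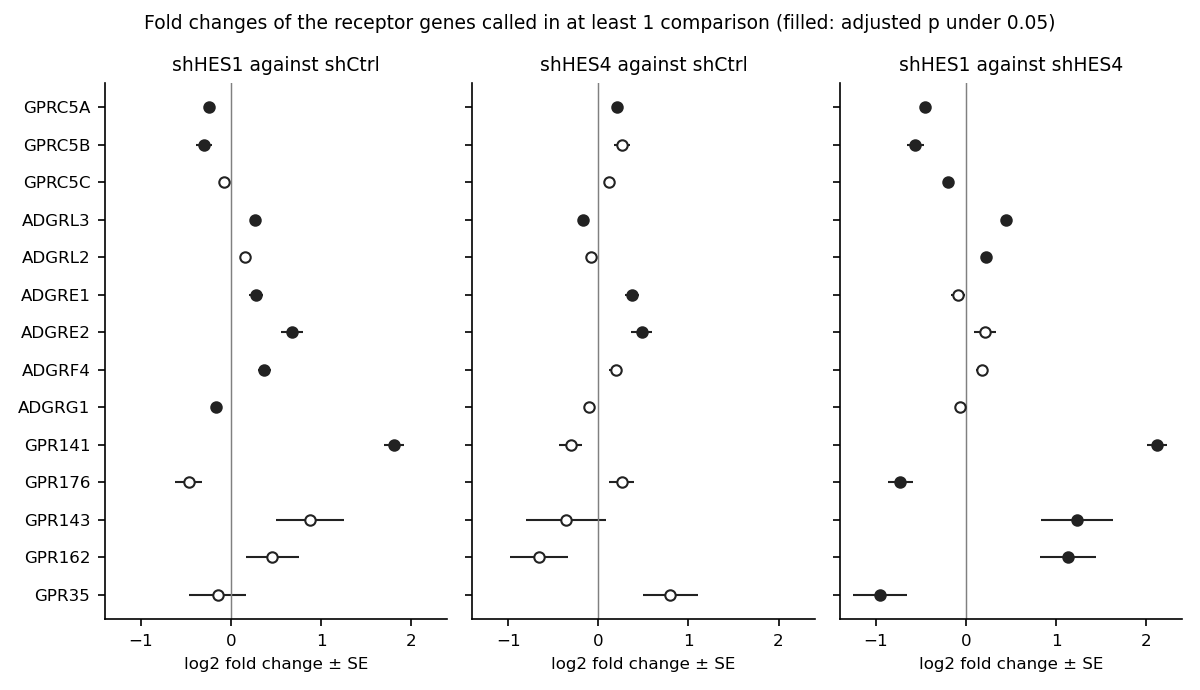
Log2 fold change with its SE (horizontal axis) of the 14 genes called in at least 1 comparison, 1 panel per comparison; filled points have an edgeR adjusted p under 0.05. GPR141 lies at 1.81 and 2.12 in the panels of shHES1 against shCtrl and against shHES4, and the GPRC5 genes lie left of 0 in the first and last panels and right of 0 in the middle one.

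The receptors of matrix and cell surface ligands are given first. Latrophilins are adhesion receptors that bind teneurins and FLRT proteins on other cells, and ADGRL1 was found as the receptor of a spider toxin. ADGRL3 lies on the plus strand of chromosome 4 from 61201258 to 62078335 (GENCODE release 29, GRCh38) and has 26 exons in its longest transcript. It read 62.0, 59.5 and 61.7 CPM in the libraries labelled shHES1, 43.4, 47.5 and 43.5 CPM in shHES4 and 48.5, 51.3 and 51.9 CPM in shCtrl, and none of the 3 groups overlapped another. ADGRL3 was higher in libraries labelled shHES1 than in shCtrl by 0.27 ± 0.05 on the log2 scale (adjusted p = 0.000746) and than in shHES4 by 0.45 ± 0.05 (adjusted p = 2.65e-06), and both calls held in all 16 alternative analyses. Its lower level in shHES4 against shCtrl, -0.17 ± 0.05 (adjusted p = 0.0396), was lost on leaving out any library except shCtrl replicate 1 or shHES4 replicate 2 (adjusted p = 0.0516 to 0.144), and with the 6 libraries compared alone (0.08).

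ADGRL2 lies on the plus strand of chromosome 1 from 81306160 to 81992436, with 25 exons. It read 27.2, 27.6 and 27.8 CPM in the libraries labelled shHES1, 22.7, 24.3 and 23.7 CPM in shHES4 and 24.2, 25.1 and 25.3 CPM in shCtrl. The libraries labelled shHES1 stood above all others, and the other groups overlapped. ADGRL2 was called in shHES1-labelled against shHES4 libraries (0.22 ± 0.05, adjusted p = 0.008) and not against shCtrl (0.15 ± 0.05, adjusted p = 0.0949). ADGRL1, the third latrophilin tested, had log2 fold changes of 0.06 in libraries labelled shHES1 and -0.08 in shHES4, each against shCtrl, and of 0.13 between the HES hairpins, none of them called. ADGRL4, a latrophilin-like receptor of endothelium, had 2 counts in all. Neither ADGRL3 nor ADGRL2 had another tested gene within 500 kb.

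The ADGRE receptors carry epidermal growth factor-like repeats and are known mainly from leukocytes. ADGRE1 is the human counterpart of the mouse macrophage marker F4/80, and ADGRE2 binds chondroitin sulfate and marks myeloid cells. ADGRE1, on the plus strand of chromosome 19 from 6887566 to 6940459 with 21 exons, read 16.2, 15.6 and 15 CPM in the libraries labelled shHES1, 16.7, 16.3 and 16.8 CPM in shHES4 and 14, 12.6 and 11.7 CPM in shCtrl. Every library of either HES hairpin stood above every shCtrl library. ADGRE1 was higher in shHES4 than in shCtrl by 0.37 ± 0.08 (adjusted p = 0.0069) in every alternative analysis. Its rise in libraries labelled shHES1, by 0.28 ± 0.08 (adjusted p = 0.0262), was lost without shCtrl replicate 2 (0.0876), shCtrl replicate 3 (0.0904), shHES1 replicate 1 (0.104) or shHES1 replicate 2 (0.0793). The groups labelled shHES1 and shHES4 differed from each other by -0.09 ± 0.08 (adjusted p = 0.499).

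ADGRE2, on the minus strand of chromosome 19 from 14732393 to 14778541 with 21 exons, read 5.64, 6.16 and 5.53 CPM in the libraries labelled shHES1, 5.31, 5.09 and 4.63 CPM in shHES4 and 3.61, 3.55 and 3.62 CPM in shCtrl. Both HES hairpin groups lay above shCtrl without overlap. The rise was 0.68 ± 0.12, or 1.61-fold, in libraries labelled shHES1 (adjusted p = 0.00113, held in every alternative that gave a value). In shHES4 it was 0.48 ± 0.12 (adjusted p = 0.0298), and that call was lost on leaving out any single shCtrl library or shHES4 replicate 1 or 2 (adjusted p = 0.0604 to 0.0968), in DESeq2 (0.0788), with no filter on low counts (0.0572) and with the 6 libraries compared alone (0.0579). ADGRE2 shares near-identical exons with ADGRE5 and a short stretch of ground with ZNF333 on the other strand, so its reads are uncertain; ZNF333 had log2 fold changes of 0.14 and 0.01 in shHES1 and shHES4 against shCtrl, neither called. ADGRE5 (CD97), the receptor for CD55, was far more abundant, at 91.5, 91.9 and 88.9 CPM in the libraries labelled shHES1, 84.8, 85.5 and 88.3 CPM in shHES4 and 86.6, 84.9 and 86.1 CPM in shCtrl, and was called in no comparison. The fourth member, ADGRE3, had 1 count in all.

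Leukocyte markers were read beside the ADGRE genes. The 8 markers summed to 8.31 to 9.79 CPM in the libraries labelled shHES1, 8.41 to 10 CPM in shHES4 and 7.52 to 8.83 CPM in shCtrl. CD3E and TYROBP had 0 counts in all libraries, PTPRC had a mean of at most 0.0146 CPM in any group, and nearly all of the sum came from CD14 and ITGAM. CD14, a lipopolysaccharide co-receptor, averaged 4.36 CPM in the libraries labelled shHES1, 3.54 CPM in shHES4 and 3.15 CPM in shCtrl, with log2 fold changes against shCtrl of 0.47 in shHES1 and 0.17 in shHES4 (adjusted p = 0.0538 and 0.619). ITGAM, an integrin subunit of myeloid cells, averaged 4.65 CPM in the libraries labelled shHES1, 5.22 CPM in shHES4 and 4.86 CPM in shCtrl, with log2 fold changes against shCtrl of -0.07 in shHES1 and 0.11 in shHES4 (adjusted p = 0.855 and 0.783). The part of leukocyte markers in the ADGRE values was not tested.

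ADGRF4 (GPR115) is an orphan adhesion receptor of stratified epithelium that in the mouse is needed for enamel mineralisation. It lies on the plus strand of chromosome 6 from 47685864 to 47722021, with 10 exons, and its annotated span overlaps that of ADGRF2, which had 18 counts in all. ADGRF4 read 22.5, 21.3 and 22 CPM in the libraries labelled shHES1, 18.4, 20.5 and 19.1 CPM in shHES4 and 17.5, 15.9 and 17.3 CPM in shCtrl, and the 3 groups did not overlap. The rise in libraries labelled shHES1 against shCtrl was 0.37 ± 0.07 (adjusted p = 0.00117, held in every alternative). The difference between shHES4 and shCtrl, 0.19 ± 0.07 (adjusted p = 0.116), and that between the HES hairpins, 0.18 ± 0.07 (adjusted p = 0.0772), did not pass.

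ADGRG1 lies on the plus strand of chromosome 16 from 57610652 to 57665580, with 14 exons. It read 297.3, 302.7 and 295.3 CPM in the libraries labelled shHES1, 315.0, 305.9 and 316.6 CPM in shHES4 and 329.0, 330.4 and 349.7 CPM in shCtrl. The groups were ordered without overlap, shCtrl being highest. ADGRG1 was lower in libraries labelled shHES1 than in shCtrl, with a log2 fold change of -0.17 ± 0.03 (adjusted p = 0.00141, held in every alternative), a fold of 0.887. In shHES4 the log2 fold change was -0.11 ± 0.03 with an adjusted p of 0.0563, and it passed in 4 of 16 alternatives (adjusted p = 0.0237 to 0.0495), DESeq2 among them. Of the other tested ADGRG genes, ADGRG2, ADGRG3 and ADGRG6, none was called, with log2 fold changes of -0.10 to 0.11 over the 3 comparisons.

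Over the adhesion class, 17 of 28 genes were tested. In libraries labelled shHES1 against shCtrl, 4 were called higher and 1 lower, in shHES4 against shCtrl 2 higher and 1 lower, and in libraries labelled shHES1 against shHES4 2 higher and 0 lower. These are 29.4%, 17.6% and 11.8% of the 17, beside 9.73%, 5.94% and 15.1% of all tested genes. Tested adhesion receptors that were called nowhere included ADGRA3 at 4.03 and ADGRG2 at 3.06 CPM per kilobase in shCtrl, and, at the low end, ADGRV1, the very large receptor mutated in Usher syndrome, at a mean of 0.80 CPM in shCtrl.

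**Figure D3:**
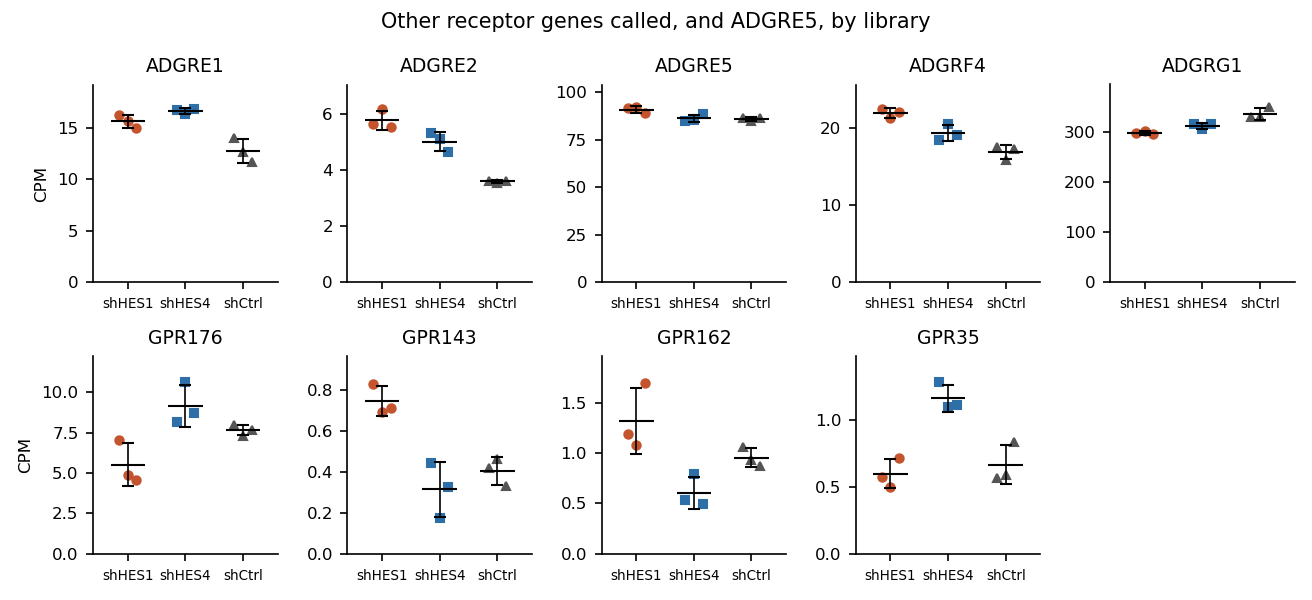
CPM (vertical axis, starting at 0) of ADGRE1, ADGRE2, ADGRE5, ADGRF4, ADGRG1, GPR176, GPR143, GPR162 and GPR35 in each library, with the mean and SD of 3 libraries per group (shHES1, shHES4, shCtrl labels from left to right). ADGRE1 and ADGRE2 stand higher in both HES hairpin groups than in shCtrl, while GPR176 and GPR35 are highest in shHES4, at up to 10.6 and 1.28 CPM.

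The GPRC5 family of class C was tested in full. GPRC5A lies on the plus strand of chromosome 12 from 12890782 to 12917937, with 4 exons. It read 185.9, 179.1 and 182.9 CPM in the libraries labelled shHES1, 247.0, 247.9 and 253.7 CPM in shHES4 and 216.5, 213.1 and 219.4 CPM in shCtrl. The shCtrl libraries lay between the HES hairpin groups, and no groups overlapped. GPRC5A was lower in libraries labelled shHES1 than in shCtrl (log2 fold change -0.24 ± 0.03, adjusted p = 3.07e-05) and higher in shHES4 than in shCtrl by 0.21 ± 0.03 (adjusted p = 0.000286). The HES hairpins differed by -0.45 ± 0.03 in shHES1-labelled against shHES4 libraries (adjusted p = 1.02e-08), and all 3 calls held in every alternative.

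GPRC5B and GPRC5C stood in the same order. GPRC5B, which is expressed widely in brain and other tissues, lies on the minus strand of chromosome 16 from 19856691 to 19886167 and read 8.02, 7.86 and 7.56 CPM in the libraries labelled shHES1, 11.1, 11.9 and 11.6 CPM in shHES4 and 8.92, 9.97 and 10 CPM in shCtrl. GPRC5C, on the plus strand of chromosome 17 from 74424851 to 74451653, read 69.4, 67.7 and 68.5 CPM in the libraries labelled shHES1, 79.5, 79.6 and 76.3 CPM in shHES4 and 71.5, 69.8 and 75.4 CPM in shCtrl. For both genes the libraries labelled shHES1 were lowest, the shHES4 libraries highest, and no groups overlapped. The difference between shHES1-labelled and shHES4 libraries was -0.56 ± 0.09 for GPRC5B (adjusted p = 0.00024) and -0.20 ± 0.04 for GPRC5C (adjusted p = 0.00247), and both calls held in every alternative. Against shCtrl, GPRC5B was lower in libraries labelled shHES1 (log2 fold change -0.30 ± 0.09, adjusted p = 0.0434), and leaving out any library other than shCtrl replicate 1 or shHES4 replicate 1 ended that call (adjusted p = 0.0534 to 0.143). It was also lost in DESeq2 (0.113), with no filter on low counts (0.0969), with total counts (0.0642) and with the 6 libraries compared alone (0.0676). GPRC5C was called in neither comparison with shCtrl, at -0.08 ± 0.04 in libraries labelled shHES1 and 0.12 ± 0.04 in shHES4 (adjusted p = 0.275 and 0.0931).

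GPRC5D, a target of myeloma therapies on plasma cells, was near the filter's minimum, at 0.145 to 0.489 CPM in the libraries labelled shHES1, 0.395 to 0.697 CPM in shHES4 and 0.266 to 0.667 CPM in shCtrl, and was not called. The 4 family members had median log2 fold changes of -0.203 in shHES1 against shCtrl, 0.234 in shHES4 against shCtrl and -0.505 in shHES1 against shHES4. GPRC5B overlaps IQCK on the opposite strand, whose log2 fold changes of -0.02, 0.06 and -0.08 were not called. Outside the family, GPR179, which acts in retinal bipolar cells, was tested at a low level and not called.

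**Figure D4:**
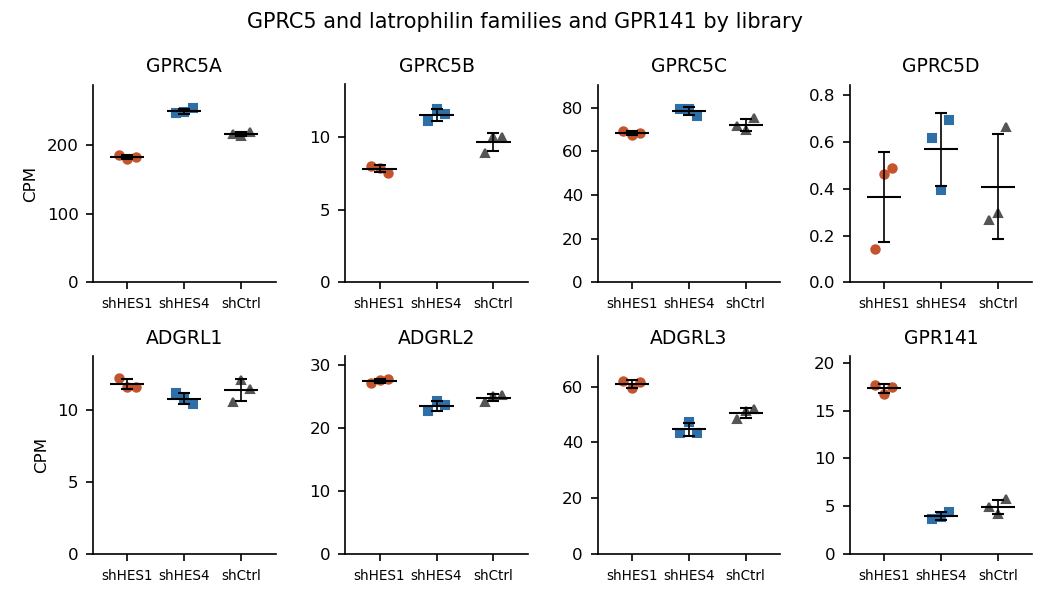
CPM (vertical axis, starting at 0) of the 4 GPRC5 genes, the 3 tested latrophilins and GPR141 in each library, with the mean and SD of 3 libraries per group (shHES1, shHES4, shCtrl labels from left to right). GPRC5A, GPRC5B and GPRC5C are lowest under the shHES1 label and highest in shHES4, ADGRL3 has the opposite order, and GPR141 stands at 16.8 to 17.7 CPM under the shHES1 label beside 3.67 to 5.71 CPM elsewhere.

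Class A held the largest difference of the 54. GPR141, an orphan receptor of unsettled function, lies on the plus strand of chromosome 7 from 37683796 to 37833788 and has 4 exons. It read 17.7, 16.8 and 17.5 CPM in the libraries labelled shHES1, 3.67, 3.86 and 4.43 CPM in shHES4 and 4.90, 4.22 and 5.71 CPM in shCtrl. The libraries labelled shHES1 stood far above the other 6, and the other groups overlapped. The difference was 3.51-fold against shCtrl (log2 1.81 ± 0.11, adjusted p = 7.29e-09) and 4.35-fold against shHES4 (log2 2.12 ± 0.11, adjusted p = 6.8e-10), and both calls held in every alternative. In shHES4 against shCtrl the log2 fold change was -0.31 ± 0.13 (adjusted p = 0.189). Per kilobase, GPR141 ranked 9 of the 54 in the libraries labelled shHES1, 23 in shHES4 and 20 in shCtrl.

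Genes at the GPR141 locus were read because whether counting used strand is not given and annotated spans overlap. EPDR1, a gene for a secreted ependymin-related protein, starts just inside GPR141 on the same strand and runs from 37683843 to 37951941. EPDR1 read 107.1, 105.1 and 112.9 CPM in the libraries labelled shHES1, 102.7, 102.4 and 99.5 CPM in shHES4 and 98.0, 103.8 and 96.5 CPM in shCtrl, a log2 fold change of 0.12 ± 0.04 in shHES1 against shCtrl (adjusted p = 0.0534). NME8, a gene of motile cilia inside the EPDR1 span from 37848597 to 37900401, was named after its values were seen. It read 1.30, 1.08 and 1.32 CPM in the libraries labelled shHES1, 0.221, 0.0438 and 0.205 CPM in shHES4 and 0.304, 0.422 and 0.250 CPM in shCtrl. The log2 fold changes of NME8 in libraries labelled shHES1 were 1.91 ± 0.38 against shCtrl and 2.93 ± 0.44 against shHES4. Outside the libraries labelled shHES1, only shCtrl replicate 2 reached the filter's minimum of 0.41 CPM. NME8 was thus tested through the group where it is high, and its fold changes are descriptions only. Whether reads that run on from neighbouring genes contribute to GPR141 was not tested.

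GPR176, a receptor of the circadian clock in the mouse suprachiasmatic nucleus, lies on the minus strand of chromosome 15 from 39799032 to 39920892, with 4 exons. It read 7.05, 4.89 and 4.59 CPM in the libraries labelled shHES1, 8.14, 10.6 and 8.69 CPM in shHES4 and 7.94, 7.31 and 7.67 CPM in shCtrl. All libraries labelled shHES1 lay below the others, replicate 1 being the closest to them. The HES hairpins differed by -0.73 ± 0.14 in shHES1-labelled against shHES4 libraries (adjusted p = 0.00208, held in every alternative). Against shCtrl the value in libraries labelled shHES1 was -0.47 ± 0.15 (adjusted p = 0.0537), and it passed in 5 alternatives, with an adjusted p of 0.00455 without shHES1 replicate 1.

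The remaining class A calls were of genes near 1 CPM. GPR162, an orphan receptor of chromosome 12 (6821545 to 6829972, plus strand, 5 exons), read 1.19, 1.08 and 1.69 CPM in the libraries labelled shHES1, 0.531, 0.789 and 0.492 CPM in shHES4 and 1.06, 0.929 and 0.875 CPM in shCtrl. The HES hairpins differed by 1.13 ± 0.31 in shHES1-labelled against shHES4 libraries (adjusted p = 0.0198), and the call ended without shHES1 replicate 3 (0.111), shHES4 replicate 1 (0.068) or shHES4 replicate 3 (0.08). P3H3, which encodes a collagen prolyl hydroxylase, begins inside GPR162 on the same strand and averaged 32.1 ± 0.522 CPM in the libraries labelled shHES1, 21.5 ± 1.16 CPM in shHES4 and 22.1 ± 1.83 CPM in shCtrl (SD, n = 3). P3H3 differed between shHES1-labelled and shHES4 libraries by 0.58 ± 0.06 (adjusted p = 4.42e-06), and how far its reads enter the count of GPR162 was not tested.

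GPR35, a receptor of intestinal epithelium and immune cells that responds to kynurenic acid, lies on the plus strand of chromosome 2 from 240605431 to 240631259. It read 0.578, 0.501 and 0.715 CPM in the libraries labelled shHES1, 1.28, 1.10 and 1.11 CPM in shHES4 and 0.570, 0.591 and 0.833 CPM in shCtrl. The shHES4 libraries stood above the rest. GPR35 was called only in shHES1-labelled against shHES4 libraries (-0.95 ± 0.30, adjusted p = 0.0432), and leaving out any library except shCtrl replicate 3 ended the call (adjusted p = 0.0528 to 0.155), as did DESeq2 (0.104) and no filter on low counts (0.078). Its span overlaps CAPN10, a calpain gene on the same strand at 16.9 CPM over all libraries, whose log2 fold changes of 0.04, 0.06 and -0.02 were not called.

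Over class A, 20 of 63 genes were tested. In shHES1-labelled libraries against shCtrl 1 was called, in shHES4 against shCtrl 0, and between the HES hairpins 4 of the 20, beside 9.73%, 5.94% and 15.1% of all tested genes. The count of 0 in shHES4 was from edgeR, with 3 genes at an unadjusted p under 0.05. DESeq2 called 2, 0 and 3 of the 20 in these comparisons. Tested and never called were GPR39, a zinc sensor, GPR161, a brake on Hedgehog signalling in cilia, GPR3, a receptor with constant activity towards cyclic AMP, and GPR132, known for responses to acid, among others.

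Among the 11 other multi-pass proteins, all tested, GPR143 alone was called. That is 1 of 11 between the HES hairpins (9.09%), where 15.1% of all tested genes were called. Neither comparison with shCtrl had a call among the 11, beside 9.73% of all tested genes under the shHES1 label and 5.94% in shHES4. GPR143 is the melanosome receptor mutated in ocular albinism and lies on the minus strand of the X chromosome from 9725346 to 9786297, with 9 exons. It read 0.831, 0.694 and 0.715 CPM in the libraries labelled shHES1, 0.442, 0.175 and 0.328 CPM in shHES4 and 0.418, 0.464 and 0.333 CPM in shCtrl. The libraries labelled shHES1 lay above the rest, and the others overlapped. The call, in shHES1-labelled against shHES4 libraries (1.23 ± 0.40, adjusted p = 0.0447), ended on leaving out any library except shHES4 replicate 1 (adjusted p = 0.0502 to 0.173) and with no filter on low counts (0.0726). GPR143 overlaps TBL1X on the opposite strand, a gene of a corepressor subunit at 61.3 CPM over all libraries. TBL1X differed between shHES1-labelled and shHES4 libraries by 0.24 ± 0.06 (adjusted p = 0.00619), and how far its reads enter the count of GPR143 was not tested. In shHES1-labelled against shHES4 libraries DESeq2 called 0 of the 11 and gave no adjusted p for GPR143. For the comparisons with shCtrl edgeR and DESeq2 each called 0 of the 11, with 2 and 2 at an unadjusted p under 0.05 in shHES1-labelled and shHES4 libraries. GPR89A and GPR89B, near-identical copies that encode a Golgi anion channel and whose reads may be split between them, GPR180, linked to transforming growth factor beta signalling, and GPR155, a lysosomal cholesterol sensor, were among the genes not called.

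Precision followed the level of the gene. Of the 54, 14 had a mean under 1 CPM over all libraries, 18 had 1 to 10 CPM and 22 had 10 CPM or more. The median SE of the log2 fold change in shHES1-labelled libraries against shCtrl was 0.379, 0.176 and 0.0546 in these bands, and 3, 4 and 7 of their genes were called in at least 1 comparison. The share of all tested genes called at each level is not given here, so these counts describe the members only. A further 40 tested genes were never called, with log2 fold changes of -0.94 to 0.59 in shHES1 against shCtrl, -0.56 to 1.20 in shHES4 against shCtrl and -0.80 to 0.84 in shHES1 against shHES4. The ends of the ranges against shCtrl were at GPR20, GPR34, GPR155 and GPR132, named here after their values were seen. Of these, GPR155 had a mean of 1.68 CPM over all libraries and the others were under 1 CPM. Among genes under 1 CPM, log2 fold changes of -0.95, 1.23 and 1.13 passed for GPR35, GPR143 and GPR162 in shHES1-labelled against shHES4 libraries.

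**Figure D5:**
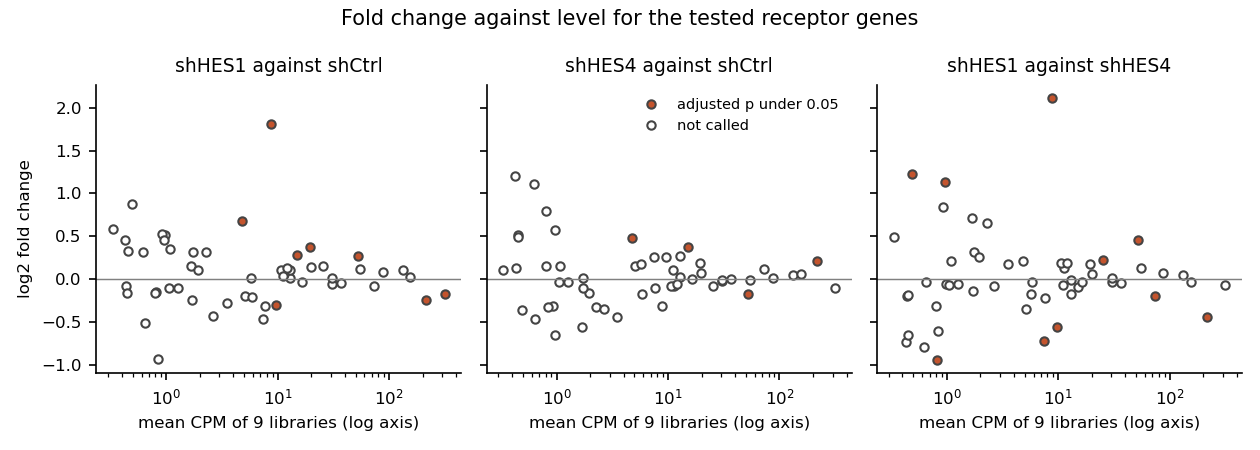
Log2 fold change (vertical axis) of the 54 tested genes against their mean CPM over 9 libraries (horizontal log axis), 1 panel per comparison; filled points have an edgeR adjusted p under 0.05. Uncalled genes under 1 CPM spread as far as 1.20, while uncalled genes at 10 CPM or more stay within 0.269 of 0 on the log2 scale.

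The signalling proteins that work with these receptors were read from the same fit. Of the G protein alpha subunits, which choose the effector, 0 of 10 tested were called in each comparison. At an unadjusted p under 0.05 there was 1 in each comparison with shCtrl and 3 between the HES hairpins. Between the HES hairpins the count of 0 was not stable. DESeq2, no filter, a mean of at least 5 CPM and the 6 libraries compared alone each called 1, and scaling to total counts 2. Leaving out shCtrl replicate 1, shCtrl replicate 3 or shHES4 replicate 1 also gave 1 call. Both comparisons with shCtrl stayed at 0 in every alternative. Of the 12 tested beta and gamma subunits, 1 was lower in shHES1-labelled libraries against shCtrl, 1 higher in shHES4 against shCtrl, and 1 higher and 1 lower between the HES hairpins, where 9.73%, 5.94% and 15.1% of all tested genes were called. With libraries scaled to total counts the call in shHES1 against shCtrl turned to 2 higher and 0 lower. GNG11, a gamma subunit, averaged 129.6 ± 2.71 CPM in the libraries labelled shHES1, 156.4 ± 3.21 CPM in shHES4 and 131.0 ± 11.1 CPM in shCtrl (SD, n = 3). It rose in shHES4 against shCtrl by 0.26 ± 0.05 (adjusted p = 0.00259) and was lower in shHES1-labelled than in shHES4 libraries (log2 fold change -0.27 ± 0.05, adjusted p = 0.000612). GNB1, the call in shHES1 (-0.10 ± 0.03, adjusted p = 0.0414), was lost in 10 of 16 alternatives, and GNG12 differed between the HES hairpins by 0.14 ± 0.03 (adjusted p = 0.00466).

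Receptor kinases and arrestins, which switch active receptors off, gave 0 calls among 7 tested in each comparison by edgeR and by DESeq2, with 3, 2 and 1 at an unadjusted p under 0.05. Of all tested genes, 9.73% were called in shHES1-labelled libraries against shCtrl, 5.94% in shHES4 against shCtrl and 15.1% between the HES hairpins. RGS proteins speed the return of G proteins to rest, and 1 of 12 tested, RGS2, was called. RGS2, an inhibitor of the Gq family, averaged 41.6 ± 1.68 CPM in the libraries labelled shHES1, 28.8 ± 2.31 CPM in shHES4 and 28.1 ± 0.488 CPM in shCtrl (SD, n = 3). It was higher in libraries labelled shHES1 by 0.57 ± 0.06 against shCtrl (adjusted p = 3.49e-06) and by 0.53 ± 0.06 against shHES4 (adjusted p = 4.14e-06), in every alternative.

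Effectors of G proteins were 22 tested genes, with median log2 fold changes of 0.087, -0.045 and 0.148 in the 3 comparisons. In shHES1-labelled libraries against shCtrl 4 were higher and 0 lower, in shHES4 against shCtrl 0 were called by edgeR and by DESeq2 (4 at an unadjusted p under 0.05), and between the HES hairpins 7 were higher and 1 lower under the shHES1 label. Over all tested genes 5.25% were higher and 4.48% lower in shHES1-labelled libraries against shCtrl, 5.94% were called in shHES4 against shCtrl, and 7.41% were higher and 7.65% lower between the HES hairpins. DESeq2 called 3, 0 and 6 of the 22. PRKAR1A, a regulatory subunit of protein kinase A, differed between shHES1-labelled and shHES4 libraries by 0.16 ± 0.03 (adjusted p = 0.00102). ADCY3, an adenylyl cyclase, differed by 0.23 ± 0.04 (adjusted p = 0.000789), and PLCB3 and PLCB1, phospholipases downstream of Gq, by 0.23 ± 0.05 (adjusted p = 0.00347) and 0.92 ± 0.23 (adjusted p = 0.0115). The count of 4 against shCtrl came down to 1 without shCtrl replicate 1, shCtrl replicate 2 or shHES1 replicate 3, and to 2 without shHES1 replicate 2. The 8 calls between the HES hairpins became 4 without shHES1 replicate 2, and 5 without shHES1 replicate 1, shHES1 replicate 3 or shHES4 replicate 1.

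Binding partners of adhesion receptors were 20 tested genes. In shHES1-labelled libraries against shCtrl 5 were higher and 2 lower, in shHES4 against shCtrl 3 were higher and 1 lower, and between the HES hairpins 4 were higher and 2 lower under the shHES1 label. The calls were thus 7, 4 and 6 of 20, where 9.73%, 5.94% and 15.1% of all tested genes were called. FLRT2 and FLRT3 are membrane ligands of latrophilins. FLRT2 averaged 18.1 ± 1.19 CPM in the libraries labelled shHES1, 10.8 ± 0.981 CPM in shHES4 and 13.5 ± 0.599 CPM in shCtrl, a log2 difference of 0.75 ± 0.08 between shHES1-labelled and shHES4 libraries (adjusted p = 5.44e-06). FLRT3 averaged 35.7 ± 0.567 CPM in the libraries labelled shHES1, 27.8 ± 1.39 CPM in shHES4 and 25.7 ± 0.937 CPM in shCtrl, a rise of 0.47 ± 0.05 in libraries labelled shHES1 against shCtrl (adjusted p = 1.14e-05). The order of FLRT2 over the groups was that of ADGRL3, and the call for FLRT2 in shHES4 against shCtrl (-0.33 ± 0.09, adjusted p = 0.0338) was lost in 6 of 16 alternatives. Not all latrophilin ligands moved this way. The teneurin TENM3 averaged 122.8 CPM in libraries labelled shHES1 and 135.3 CPM in shCtrl, which was lower (log2 fold change -0.14 ± 0.04, adjusted p = 0.0212). TENM2, at means of 1.07, 0.384 and 0.586 CPM in shHES1, shHES4 and shCtrl, differed between the HES hairpins by 1.46 ± 0.38 (adjusted p = 0.0135).

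CD55, the complement regulator bound by ADGRE5, averaged 160.4 ± 1.80 CPM in the libraries labelled shHES1, 207.7 ± 5.85 CPM in shHES4 and 207.3 ± 2.28 CPM in shCtrl (SD, n = 3). It was lower in libraries labelled shHES1 than in shCtrl (log2 fold change -0.37 ± 0.03, adjusted p = 3.76e-07), in every alternative, while ADGRE5 itself was not called. TGM2, the transglutaminase reported to bind ADGRG1, averaged 3125.0 ± 35.3 CPM in the libraries labelled shHES1, 3521.7 ± 58.0 CPM in shHES4 and 3069.4 ± 83.0 CPM in shCtrl. TGM2 rose in shHES4 against shCtrl by 0.20 ± 0.03 (adjusted p = 7.69e-05), and its log2 fold change in libraries labelled shHES1 was 0.03 ± 0.03 (adjusted p = 0.606). Without shHES4 replicate 3 the 4 calls of this list in shHES4 against shCtrl became 1.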

How the data were processed

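RNA sequencing of 9 A549 libraries was analysed, 3 per hairpin label. RNA came from TRIzol extraction and libraries from a SMARTer kit, per the labels' protocols. Estimated counts for human Ensembl genes were deposited by the authors in a single table; the aligner, counter, annotation and strand setting were not given in the sources used here, and the submitters' processing notes name mouse builds, so no build was taken from them. Values above 0 departed from whole numbers in 35.5% of cases (tolerance 1e-06). The members, classes and lists were chosen with earlier results of these data known. Current symbols came from the reference name table and coordinates and exon lengths from GENCODE release 29 on GRCh38.

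The deposited estimated counts were rounded. The filter filterByExpr (minimum count 10) left 16903 genes, and libraries were scaled by TMM factors. The 3 groups were fitted in 1 model by edgeR's quasi-likelihood F test (edgeR 4.0.16, R 4.3.3; 6 residual degrees of freedom) and Benjamini-Hochberg adjustment over all genes tested, at 0.05. The fit was also run on counts simulated with a spread common to all genes. That run cannot show how the fit handles spread that differs between genes. Where no other tool is named, adjusted p are from edgeR, and SE is the log2 fold change divided by the square root of F. No 2 libraries agreed within sampling noise: chi-square per degree of freedom was 2.36 to 6.78 within groups, the 2 highest values being of shCtrl replicate 3, and 6.2 to 13.2 between groups.

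Named with values per library were all members called in at least 1 comparison and the 8 highest per kilobase in shCtrl. Up to 4 called genes per signalling list were also named. Overlapping genes, other members and the teneurin genes TENM2 and TENM3 were added after their values were seen. ADGRF2, listed by RefSeq as a pseudogene, was not a member, and GPR182 was kept under that symbol. Promoter windows were taken from the RefSeq table, which held 10 of the 14 called genes; ADGRE2, GPR162, GPRC5A and GPRC5C had no entry. Alternatives were RLE factors, total counts, no filter, a mean of at least 5 CPM, the replicate number as a block, the 6 libraries of a comparison alone, each of 9 libraries left out, and DESeq2 1.42.0. Some members are not reported here by name.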

Additional observations from a re-analysis of the deposited data

How the results depend on the processing

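Of the 22 receptor gene calls over the 3 comparisons, 15 held in every one of the 16 alternatives that gave a value, 6 of 8 in shHES1 against shCtrl, 2 of 4 in shHES4 against shCtrl and 7 of 10 in shHES1 against shHES4; no result reversed. The 4 calls in shHES4 against shCtrl became 2 with the replicate block and 2 with the 6 libraries compared alone. Leaving out 1 library gave 6 to 8 calls in shHES1 against shCtrl, 2 to 4 in shHES4 against shCtrl and 7 to 9 between the HES hairpins. Over all genes the same gave 1084 to 1800, 682 to 1015 and 1775 to 2936 calls, the 1084 being without shHES1 replicate 2. The cause was not tested. Libraries with the same number deviated from their group means with correlations of -0.0514 to 0.0474 over all tested genes. Every gene had equal weight, so weak sharing could be hidden, and the labels do not state whether the number pairs samples. With the replicate block the receptor calls were 7, 2 and 8 in the 3 comparisons. These were without GPRC5B, without ADGRE2 and ADGRL3, and without GPR143 and GPR35. The calls over all genes with the block were 1443, 850 and 2297. DESeq2 called 8, 4 and 8 receptor genes, but not the same genes. In shHES1 against shCtrl it lost GPRC5B (adjusted p = 0.113) and gained GPR176 (0.046). In shHES4 against shCtrl it lost ADGRE2 (0.0788) and gained ADGRG1 (0.0237). Between the HES hairpins, total counts and the 6 libraries compared alone each gave 11 calls, more than the 10 of the main fit. Genes under the minimum of 5 CPM gave no value with that filter. Depth limits the genes under 1 CPM most, and for the 57 genes not tested no difference could be read.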

Other observations

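Tested genes within 500 kb of the called receptor genes were read as values only. Around ADGRG1, 6 of 25 neighbours were called, all of them lower, in libraries labelled shHES1 against shCtrl, among them the chemokine genes CCL17 and CCL22, the membrane protein gene PLLP and the adaptor gene DOK4. Against shHES4, 8 of the 25 were called, all of them lower, in libraries labelled shHES1. Over all tested genes 4.48% were called lower in shHES1 against shCtrl and 7.65% in shHES1 against shHES4. In shHES4 against shCtrl, 1 of the 25 was called, DOK4, which was higher there. Around GPR141, 1 of 4 neighbours (NME8) was called in shHES1-labelled libraries against shCtrl and 2 were called against shHES4 (NME8 and ELMO1, an engulfment adaptor gene). NME8 passed the filter through the libraries labelled shHES1, where it is high, so its calls are not independent of that rise. ELMO1 averaged 13.1 ± 1.32 CPM in the libraries labelled shHES1, 9.26 ± 0.672 CPM in shHES4 and 11.3 ± 0.978 CPM in shCtrl (SD, n = 3), a log2 difference of 0.50 ± 0.10 between shHES1-labelled and shHES4 libraries (adjusted p = 0.00195). These neighbours were named after their values were seen, and genes of 1 region share their surroundings, so the counts are descriptions.

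Among markers of other cell types, the neuronal and glial list summed to 216.9 to 222.8 CPM in the libraries labelled shHES1, 168.8 to 177.1 CPM in shHES4 and 175.4 to 180.3 CPM in shCtrl. SYT1, a synaptic vesicle calcium sensor, averaged 26.1 ± 1.04 CPM in the libraries labelled shHES1, 8.76 ± 0.202 CPM in shHES4 and 12.5 ± 0.582 CPM in shCtrl (SD, n = 3). This order was shared with ADGRL3, and whether the 2 are linked was not tested. Other genes of the list did not show it clearly. SNAP25 averaged 102.4, 77.2 and 77.4 CPM in the libraries labelled shHES1, shHES4 and shCtrl, so shHES4 was level with shCtrl. In the same group order MBP averaged 80.5, 77.7 and 78.8 CPM, GFAP 3.23, 2.63 and 2.28 CPM and RBFOX3 7.73, 7.47 and 7.44 CPM. The endothelial list summed to 1.18 to 2.21 CPM over all libraries. The fibroblast list summed to 18.0 to 18.5 CPM in the libraries labelled shHES1, 9.76 to 11.9 CPM in shHES4 and 12.5 to 21.1 CPM in shCtrl.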
